A study of Mus musculus with 27 samples.

Results

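The comparison described here sets the mouse liver 4 weeks after weaning against the liver at day 10 of lactation. Its members are the 4 libraries whose titles begin with REG and the 3 whose titles begin with LAC, 7 of the 27 bulk RNA sequencing libraries of the series. The 4 libraries of nulliparous females (NUL) serve as the second reference: they had not been through a reproductive cycle, whereas the REG animals had.

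All animals were wild type females of BALB/c, an inbred laboratory strain. Except for the nulliparous group, females were mated at 10 to 12 weeks of age and litters were set to an equal size. In the groups sampled after weaning, pups were taken away after 10 to 14 days of lactation. The lactating group was sampled at lactation day 10 and the group called regressed by the labels 4 weeks after weaning. Animals of the stages were matched for age, per the series' design text, and whole livers were frozen and pulverised, so each library mixes all cell types of the organ. Below, "lactating", "regressed" and "nulliparous" name the LAC, REG and NUL libraries, and single libraries are named by title, such as REG_203. Titles give each library its own number but do not say whether any tissue was pooled, so p-values measure the spread between these libraries.

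In lactation the rodent liver grows, hepatocytes divide, and the organ supplies lipid precursors, plasma protein and glucose for milk while food intake is high. Prolactin and growth hormone act on hepatocytes through JAK2 and STAT5. After weaning the organ returns towards its former size while immune cells clear dying cells.

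Expected counts summed to between 61234156 and 65680450 per lactating library and between 59402998 and 71253166 per regressed library. Mitochondrial transcripts took 3.69% to 4.54% of the counts in lactating and 3.47% to 4.79% in regressed livers. The 12 hepatocyte markers checked, among them Alb, Apoa1, Ttr and Cps1, were the most abundant of the marker lists in both groups, with a summed level of 143573 to 165240 TPM (a level per gene length, scaled to 1 total in every library) in lactating and 88770 to 100046 TPM in regressed livers. Alb alone made up 113055 of the mean sum of 150929 TPM in lactating and 57575 of 96089 TPM in regressed livers. Some libraries come from 1 sequencing run and others from 2. Among these 7, 1 lactating and 3 regressed livers had 1 run, so the number of runs is partly confounded with stage. With the number of runs as a covariate, added after seeing the data, 1587 genes were called in place of the 1930 below, and 12 of the 137 genes named by rule lost their call.

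Of 16428 genes tested, 1930 were called, which is 11.7%. A gene is called here at a Benjamini-Hochberg adjusted p under 0.05 in edgeR's quasi-likelihood test. Log2 fold changes are regressed minus lactating, so a negative value means that a gene was higher in lactation. The calls comprised 1044 genes higher in regressed livers (6.36% of genes tested) and 886 lower (5.39%). The change exceeded 2-fold for 563 called genes (3.43%), 252 higher (1.53%) and 311 lower (1.89%). The split depended on the fit. On log2 TPM, limma called 73% (pseudocount 1) or 75.7% (pseudocount 0.1) of its genes higher in regressed livers, against 54.1% here. The median of all genes moved from 0.019 to 0.067 and 0.113. Test and unit changed together in these fits, and the part of each was not tested. With scaling alone changed, 51% (RLE) or 49.8% (without mitochondrial and the 10 most abundant genes) were higher. Against nulliparous livers the same fit called 14 genes in the regressed group (0.0852% of genes tested), 4 higher (0.0243%) and 10 lower (0.0609%). Nulliparous against lactating livers gave 1837 calls (11.2%), 985 higher (6%) and 852 lower (5.19%). At an unadjusted p under 0.05 there were 1178 genes (7.17%) between regressed and nulliparous livers and 4120 (25.1%) between regressed and lactating livers.

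**Figure D1:**
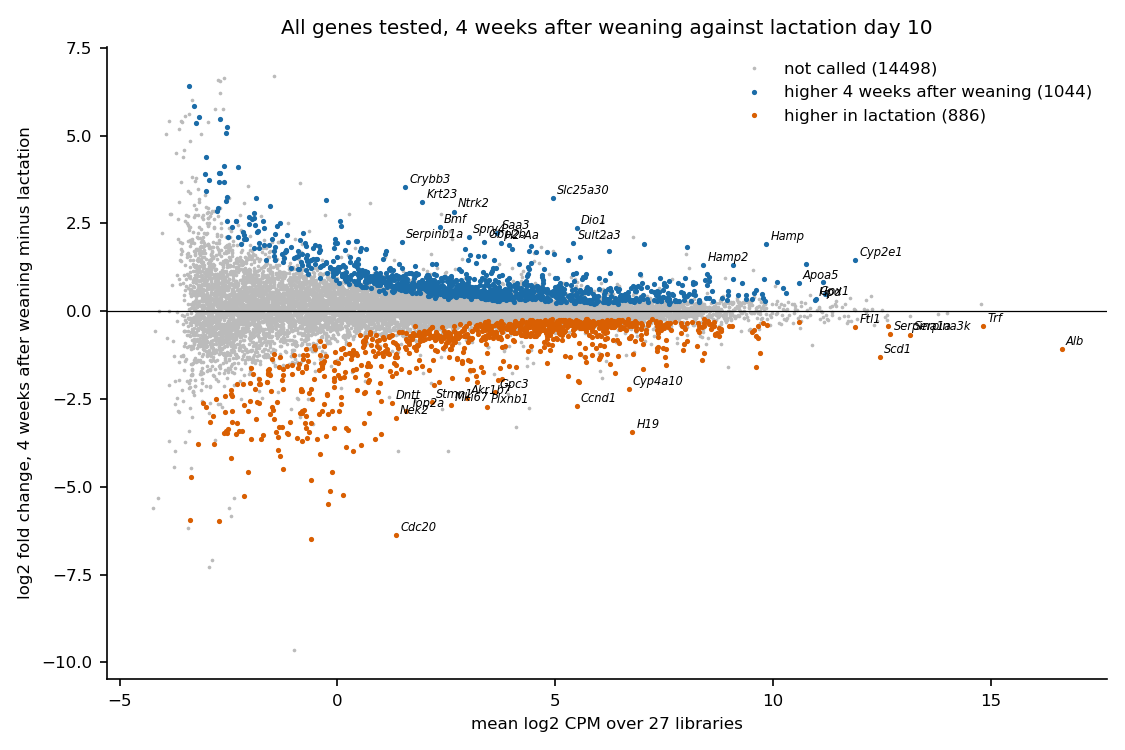
Each point is 1 of 16428 genes, with the mean log2 CPM (counts scaled to the TMM-adjusted library total) over all 27 libraries on the horizontal axis and the log2 fold change of regressed minus lactating livers on the vertical axis. Blue points are the 1044 genes called higher 4 weeks after weaning, orange points the 886 called higher in lactation, and labels mark the genes with the largest log2 changes among those averaging 1 or more on the horizontal axis, or the largest TPM changes, Cdc20 lowest among them at -6.38 and Crybb3 highest at 3.54.

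**Figure D2:**
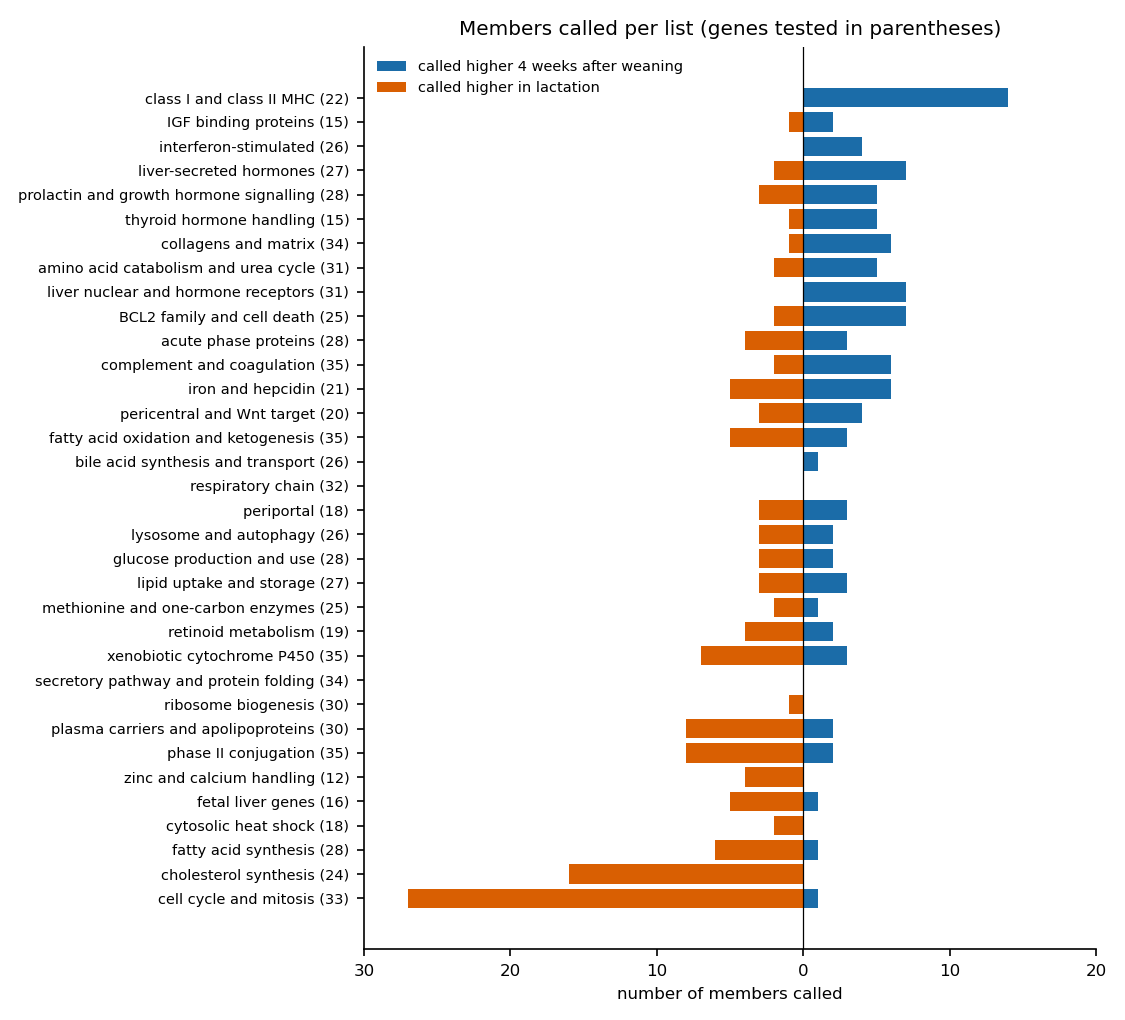
Bars count the members of each process list called higher in regressed livers (right, blue) or higher in lactation (left, orange), with the number of members tested in parentheses and lists ordered by median log2 fold change. The cell cycle list lies at one end with 27 members higher in lactation and 1 higher in regressed livers, and the list of class I and class II MHC genes at the other with 14 higher in regressed livers and none lower.

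Genes of mitosis had the largest median difference of the process lists. Of 33 tested members of the list of cell cycle and mitosis genes, 27 were lower in regressed than in lactating livers and 1 was higher. The shares over all genes tested were 5.39% and 6.36%. The median log2 fold change was -2.68, beside 0.0191 over all genes tested. With limma the list median was -0.7 on the log2(TPM + 1) scale and -1.75 with a pseudocount of 0.1, beside 0.067 and 0.113 over all genes. The summed level of the list was 165 to 202 TPM in lactating, 72.6 to 86.7 TPM in regressed and 90.2 to 132 TPM in nulliparous livers. The lactating and regressed ranges did not overlap, and the largest member of the sum was the G1 cyclin Ccnd1. All 33 members also passed the filter on low counts when the lactating libraries were left out. In whole liver, fewer cells of a type and less RNA per cell cannot be told apart.

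Promoter stretches of 5 of these genes are shown, with and without short sequence elements known from mitotic genes. They come from RefSeq windows on GRCm38.p6 and are given 5′ to 3′ on the strand of the gene. Those of Hmmr and Ckap2 end at the RefSeq start, and those of Cdc20, Cdk1 and Nek2 stop 9, 26 and 29 bases before it. Capitals mark CCAAT or its reverse complement ATTGG, the letters of the box bound by NF-Y, and TTTGAA, the letters of the cell cycle homology region bound by complexes that silence mitotic genes in resting cells.
Cdc20 (chr4:118437353-118437463, minus strand): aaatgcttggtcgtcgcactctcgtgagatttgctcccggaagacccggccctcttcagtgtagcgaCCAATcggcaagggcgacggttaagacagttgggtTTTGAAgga
Cdk1 (chr10:69352939-69353032, minus strand): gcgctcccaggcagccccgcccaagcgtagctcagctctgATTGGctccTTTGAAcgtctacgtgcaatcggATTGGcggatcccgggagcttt
Hmmr (chr11:40733438-40733557, minus strand): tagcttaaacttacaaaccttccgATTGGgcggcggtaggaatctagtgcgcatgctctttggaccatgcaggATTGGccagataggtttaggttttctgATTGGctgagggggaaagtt
Ckap2 (chr8:22185820-22185939, minus strand): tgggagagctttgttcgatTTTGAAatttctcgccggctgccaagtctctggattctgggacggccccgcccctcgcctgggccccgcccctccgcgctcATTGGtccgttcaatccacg
Nek2 (chr1:191821353-191821443, plus strand): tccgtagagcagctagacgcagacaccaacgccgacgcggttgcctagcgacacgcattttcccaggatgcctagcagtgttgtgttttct

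The stretch of Nek2 holds neither element. CCAAT begins 53 bases and TTTGAA 18 bases before the RefSeq start of Cdc20. In the window from 250 bases before to 50 after the start, on either strand, CCAAT was present for 20 of the 25 cell cycle genes that had a window (80%), against 42.6% of 11701 tested genes. TTTGAA was present for 11 of 25 (44%), against 15% of all, and in the 250 bases before the start alone for 7 of 25 (28%), against 13.5%. Among all genes called lower in regressed livers 53.4% held CCAAT and 22.3% TTTGAA (17.6% in the shorter window), and among those called higher 38.6% and 16.2%. Both elements were searched after the values of these genes had been seen, and a match is a description of letters, not of binding.

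Cdc20, the activator of the anaphase promoting complex (ENSMUSG00000006398), measured 16.4, 11.3 and 15.8 CPM in lactating livers LAC_200, LAC_213 and LAC_240. In regressed livers REG_203, REG_214, REG_234 and REG_239 it measured 0.256, 0.17, 0.143 and 0.123 CPM, from 9 to 17 reads per library. Every regressed value lay below every lactating value and also below every nulliparous value, the lowest of which was 1.07 CPM. The log2 fold change was -6.38 ± 0.55 (SE), with an adjusted p of 8.91e-08 in edgeR.

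Cdk1 encodes the kinase that drives entry into mitosis. Its level was 5.4, 4.57 and 5.38 CPM in lactating livers and 0.286, 0.278, 0.269 and 0.616 CPM in regressed livers. The lactating libraries lay close together, and 1 regressed library, REG_239, lay above the other 3 (log2 fold change -3.8 ± 0.32, edgeR adjusted p = 1.43e-08).

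Hmmr, a hyaluronan receptor that also organises the spindle, ranged from 3.73 to 5.14 CPM in lactating and from 0.041 to 0.139 CPM in regressed livers, where it had 3 to 9 reads per library. Ckap2, a cytoskeleton-associated protein of the spindle, ranged from 3.08 to 5.66 CPM in lactating and from 0.0792 to 0.205 CPM in regressed livers. The groups did not overlap for either gene, and the log2 fold changes were -5.48 and -5.13. Cyclin B1 (Ccnb1), the partner of Cdk1, measured 5.93 ± 1.49 CPM (SD, n = 3) and 0.154 ± 0.084 CPM (SD, n = 4). Its log2 fold change was -5.24.

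Other members followed the same direction. Centromere protein Cenpf (-4.59), polo-like kinase Plk1 (-4.06), Aurora kinase Aurkb (-3.45), kinesin Kif20a (-3.5), centrosomal kinase Nek2 (-3.05), cyclin A2 (Ccna2, -2.9) and topoisomerase Top2a (-2.84) were all called lower in regressed livers and stayed called when any single lactating or regressed library was left out. Counts of Kif20a and Ccna2 were not whole in any of the 27 libraries, so they include estimated shares of reads.

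The G1 cyclin Ccnd1 was the most abundant member. In lactating livers it measured 105, 185 and 157 CPM, and in regressed livers 19.6, 26.9, 14.4 and 29.9 CPM. The groups did not overlap, and nulliparous livers ranged from 26.8 to 83.7 CPM (log2 fold change -2.71 ± 0.36, edgeR adjusted p = 3.84e-05). Ccnd2, another D-type cyclin, went the other way, at 7.59 ± 0.933 CPM (SD, n = 3) in lactating and 10.3 ± 1.55 CPM (SD, n = 4) in regressed livers (0.45). Its call was lost without LAC_213, LAC_240 or REG_239 (edgeR adjusted p from 0.0614 to 0.133).

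Members of DNA replication included genes that were not called. The helicase subunit Mcm2 was lower, at 7.99 ± 2.76 CPM (SD, n = 3) and 4.05 ± 0.63 CPM (SD, n = 4), a log2 fold change of -0.98. The sliding clamp Pcna, at 28 ± 0.845 CPM (SD, n = 3) and 26.6 ± 2.05 CPM (SD, n = 4), and thymidylate synthase Tyms were not called (-0.07 and -0.31). Ccne2, Cdkn1a and Mcm5 were the other members not called.

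**Figure D3:**
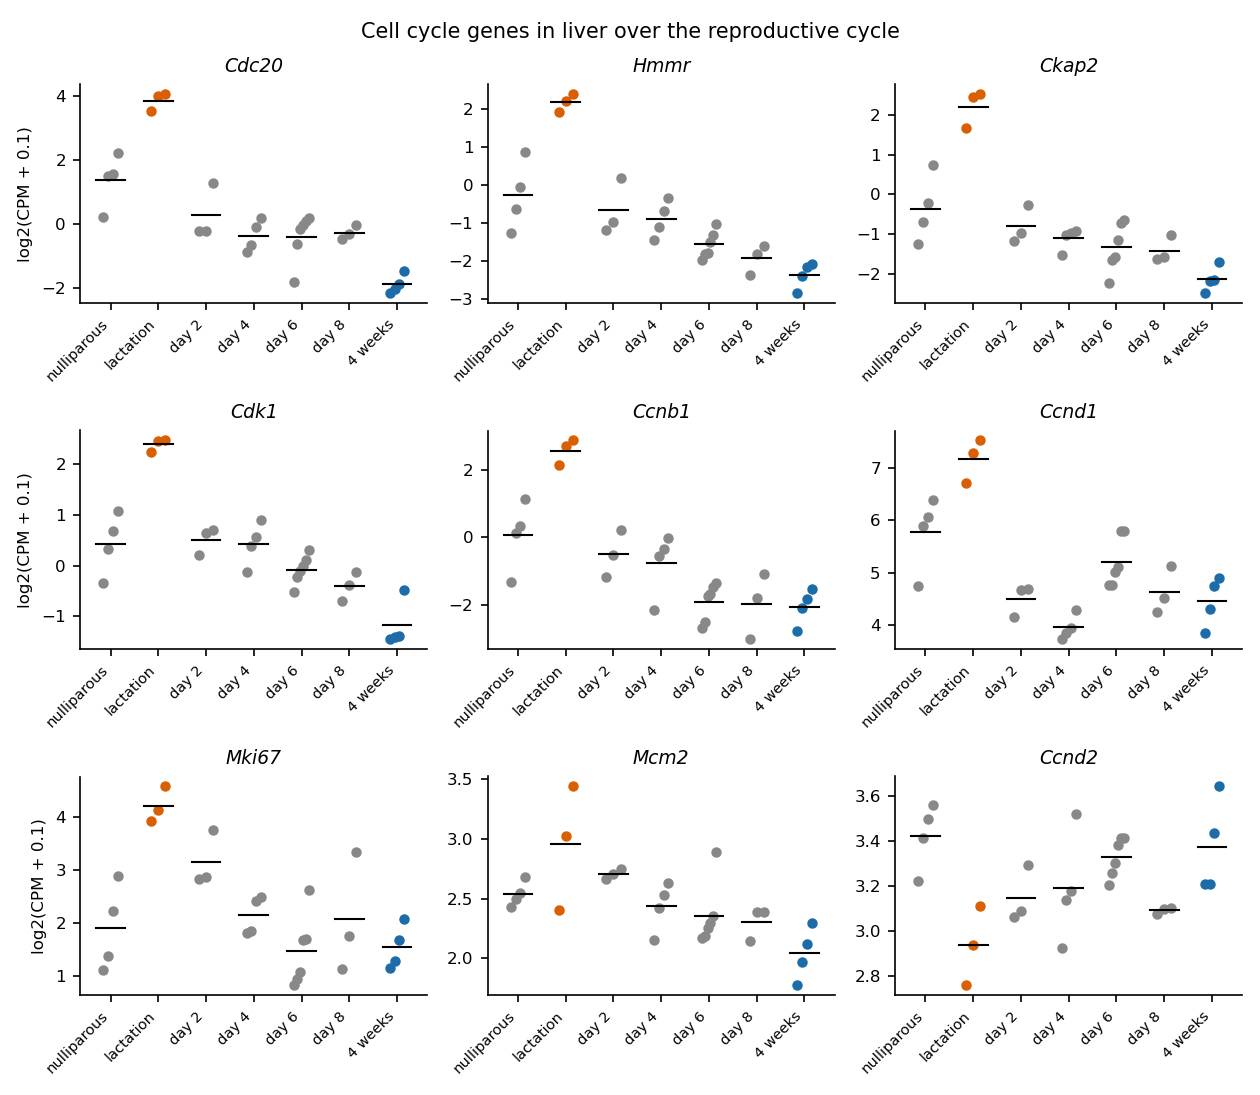
Points are libraries at each of the 7 stages, days being days after weaning, with log2(CPM + 0.1) on the vertical axes and bars at the mean of the plotted values; lactating livers are orange and regressed livers blue. Cdc20, Hmmr and Ckap2 have their lowest median in regressed livers, though single libraries of other stages overlap that range for Cdc20 and Ckap2 (day 6) and Hmmr (day 8), with Cdc20 at 0.123 to 0.256 CPM in regressed livers and 0.181 to 1.02 CPM at day 6; Ccnd2 has its lowest median in lactation.

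The contrast of regressed with nulliparous livers tests whether the change from lactation depends on the reference. Of the 14 genes called there, 12 were also called against lactation, and 10 of these were lower in regressed livers in both contrasts. Of all genes tested, 11.7% were called against lactation and 5.39% were called lower. Both contrasts use the same regressed libraries, so this overlap is partly built in and is no separate result. Among the 33 tested members of the cell cycle list, 4 were called in this contrast, beside 0.0852% of all genes tested. Mcm2 was not called there (-0.496). Mki67 was not called either, at 2.14 to 4.15 CPM in regressed and 2.07 to 7.35 CPM in nulliparous livers. Cdc20 was lower in regressed than in nulliparous livers by -3.99 on the log2 scale (edgeR adjusted p = 0.000403) and Hmmr by -3.12 (0.00318 by the same test). Both stayed called when any of the 8 libraries was left out, with edgeR adjusted p-values of at most 0.00574 and 0.0353. The same held for Slc39a5 and Vtcn1 below (0.00566 and 0.00468). Of the 14 genes, Cdc20 alone stayed called in every other setting tried, with an edgeR adjusted p of 0.0236 when only regressed and nulliparous libraries were fitted. No other gene passed in that fit, where the adjusted p-values of Hmmr, Slc39a5 and Vtcn1 were 0.237, 0.199 and 0.237. With limma on log2 TPM the adjusted p of Hmmr was 0.0923 or 0.305, by pseudocount. The number of genes called was 70 with DESeq2 and 8 with limma.

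For Cdk1 (-1.86), Kif20a (-1.71), Nek2 (-1.45), Ckap2 (-2.55) and the guanine exchange factor Arhgef39 (-2.41) the call against nulliparous livers was lost without at least 1 library. Without REG_203 the call was lost for all 5, and the count of genes called against nulliparous livers fell from 14 to 4. It was 32 without NUL_220, 26 without NUL_221 and 8 without REG_239. Without NUL_226 it was lost for Kif20a, Nek2, Ckap2 and Arhgef39, and 11 genes were called. REG_203 had the lowest clock score of the 7 libraries, -2.15 against -0.208 to 1.2 in the other regressed and -0.358 to 1.37 in the lactating livers. It was also the only regressed library with 2 runs and had the lowest mitochondrial share of the group, 3.47% of counts. The clock score is the mean standardised level of Arntl, Npas2 and Clock less that of 6 genes of the opposite phase, and the part of these features was not tested beyond the fit with runs, which called 13 genes against nulliparous livers, and the fit with the score as a covariate, which called 32 genes against nulliparous livers.

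Slc39a5, a zinc importer, was lower in regressed livers than in either other group. It measured 5.79, 8.25 and 7.77 CPM in lactating, 2.56, 1.62, 2.54 and 4.38 CPM in regressed, and 8.03 to 9.34 CPM in nulliparous livers. The regressed range lay below both others, with log2 fold changes of -1.39 against lactating and -1.68 against nulliparous livers (edgeR adjusted p = 0.000312 and 0.000403). At days 6 and 8 after weaning it was already low, at 1.69 to 3.21 and 2.21 to 3.91 CPM.

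Rdh16f2, of the retinol dehydrogenase family, lay between the references. Its level was 97.8 to 141 CPM in lactating, 54.4 to 70.9 CPM in regressed and 18.6 to 38.1 CPM in nulliparous livers, with no overlap between any of the 3 groups. It differed by -0.91 from lactating and by 1.22 from nulliparous livers. The first call was lost without LAC_213 (edgeR adjusted p = 0.0726) and the second without NUL_226, REG_203 or REG_214 (edgeR adjusted p from 0.0572 to 0.0938).

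The helicase gene Ddx11 (-0.78 and -0.56), the receptor gene Lrp11 (-0.7 and -0.87) and the class I gene H2-Q7 (0.45 and 0.68) were the remaining genes called in both contrasts. Against nulliparous livers each lost the call in fits that left out 1 library: Ddx11 without NUL_221, NUL_226, NUL_227, REG_203, REG_234 or REG_239, Lrp11 without NUL_220, NUL_221 or any regressed library, and H2-Q7 without NUL_226, NUL_227, REG_203 or REG_239, with edgeR adjusted p-values up to 0.168, 0.11 and 0.122. Against lactating livers Lrp11 lost it without LAC_240 (edgeR adjusted p = 0.0579) and H2-Q7 without any of the 3 lactating libraries, REG_203 or REG_239 (up to 0.176), while Ddx11 kept it. Vtcn1, which encodes an inhibitory ligand of T cells, and Cyp2a4, a steroid hydroxylase gene, were called higher in regressed than in nulliparous livers (1.67 and 0.96) but not called against lactation (-0.63 and -0.35). For Cyp2a4, whose counts were not whole in any library, the call was lost without REG_203 (edgeR adjusted p = 0.0764).

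Calls also differed in number between references: 680 genes (4.14%) were called against lactation in regressed but not in nulliparous livers. Those contrasts share the lactating libraries, and a gene called in only 1 of them is not shown to differ between references. The genes for which that difference was tested and found are the 14 above.

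Some fetal and imprinted liver genes were high in lactation. Of 16 tested members of that list, 5 were lower in regressed livers, 1 was higher and the others were not called, with a median of -0.261 (-0.0365 by limma on log2(TPM + 1)). Over all genes tested 5.39% were called lower and 6.36% higher, and the share called higher in the list was near the latter. H19, an imprinted non-coding RNA, measured 179 to 813 CPM in lactating livers and 34.7, 23.7, 66.9 and 23 CPM in regressed livers. The groups did not overlap although LAC_240 lay far above the other 2 (-3.45 ± 0.62, edgeR adjusted p = 0.000849, and 0.0585 in a fit of the 7 libraries alone). Its imprinted neighbour Igf2, a fetal growth factor, was 3.1 to 9.8 CPM in lactating and 0.151 to 0.792 CPM in regressed livers (-3.63), again with the highest value in LAC_240.

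Glypican Gpc3 (-2.31), lipoprotein lipase Lpl (-2.02) and alpha-fetoprotein Afp (-1.84) were lower in regressed livers too. Lpl hydrolyses circulating triglyceride and is little made by adult hepatocytes. It measured 102, 102 and 163 CPM in lactating livers and 22.3, 35, 40 and 23.4 CPM in regressed livers. Regressed values lay below all lactating values and above all nulliparous values (7.54 to 21.8 CPM), but the difference of regressed from nulliparous livers did not pass the test (1.0, edgeR adjusted p = 0.278). Afp, the fetal counterpart of albumin, measured 5.24 to 6.28 CPM in lactating and 1.14 to 1.94 CPM in regressed livers.

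Cholesterol synthesis was the metabolic pathway with the largest share of members called. Of 24 tested members, 16 were lower in regressed livers and none was higher, beside 5.39% and 6.36% of all genes. The median log2 fold change was -0.744. Their summed level was 2902 to 3676 TPM in lactating, 1798 to 2357 TPM in regressed and 1698 to 2463 TPM in nulliparous livers. Promoters of a pair of members are shown because all 16 members with a RefSeq window, called or not, held CCAAT on either strand. The share over 11701 tested genes was 42.6%. Capitals mark ATTGG here, and the stretch of Lss stops 17 bases before the start. The shorter stretch of Cyp51, not shown, held neither form.
Lss (chr10:76531485-76531587, plus strand): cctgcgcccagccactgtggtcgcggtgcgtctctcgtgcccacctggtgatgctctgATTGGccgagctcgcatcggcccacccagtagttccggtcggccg
Hmgcs1 (chr13:119690231-119690350, plus strand): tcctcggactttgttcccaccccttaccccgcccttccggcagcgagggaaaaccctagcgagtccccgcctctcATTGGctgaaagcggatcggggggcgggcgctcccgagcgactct

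The letters TCACNCCAC, searched on both strands for the sterol element bound by SREBP, were found for 1 of these 16 genes and for 1.47% of all tested genes. Lanosterol synthase (Lss) measured 154, 125 and 159 CPM in lactating livers and 58.5, 52, 41.1 and 62.1 CPM in regressed livers. The groups were well apart, and 3 of 4 regressed values fell in the nulliparous range of 44.1 to 72.3 CPM, with REG_234 below it (-1.45 ± 0.19, edgeR adjusted p = 1.64e-05).

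Squalene epoxidase (Sqle) changed most, from 138 ± 19.6 CPM (SD, n = 3) in lactating to 38.1 ± 10.8 CPM (SD, n = 4) in regressed livers (-1.86). Mvd (-1.48), Nsdhl (-1.3), Idi1 (-1.28), Cyp51 (-1.23) and Hmgcs1 (-1.11) were lower as well. None of these 7 calls, Lss included, was lost when 1 library was left out. The regulator Srebf2 was not called (-0.2).

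Fatty acid synthesis moved less uniformly. Of 28 tested members, 6 were lower in regressed livers and 1 was higher, beside 5.39% and 6.36% of all genes. The median was -0.581. Scd1, the main hepatic stearoyl-CoA desaturase, measured 14149, 13065 and 13200 CPM in lactating livers and 4889, 3063, 4787 and 9065 CPM in regressed livers. The groups did not overlap and REG_239 was the highest regressed library. Its log2 fold change of -1.31 passed narrowly (edgeR adjusted p = 0.0398) and the call was lost in 6 of 7 fits with 1 library left out, all except the one without REG_239, the highest adjusted p being 0.0988.

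The related desaturase Scd2 was lower by -1.66 (edgeR adjusted p = 0.000102), the elongase Elovl1 by -0.63 and the citrate carrier Slc25a1 by -0.45, and these calls held in every such fit. Fatty acid synthase (Fasn), at 1509 ± 355 CPM (SD, n = 3) and 502 ± 236 CPM (SD, n = 4), missed the threshold (-1.59, edgeR adjusted p = 0.051). The carboxylase gene Acaca was not called either (-0.84). The cytosolic lipid carrier Fabp5 was lower by -1.64, with 257 to 411 CPM in lactating and 57.9 to 197 CPM in regressed livers. Its counts were not whole in any library, and in a fit of the 7 libraries alone its edgeR adjusted p was 0.105.

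Of 35 tested genes of fatty acid oxidation, 3 were higher and 5 lower in regressed livers. That is 22.9% called, beside 11.7% of all genes. Cpt1a, which admits long-chain fatty acids to mitochondria, was 157 to 202 CPM in lactating and 274 to 382 CPM in regressed livers (0.82). The ketone body enzyme Bdh1 measured 190 ± 9.89 CPM (SD, n = 3) against 330 ± 10.7 CPM (SD, n = 4), groups that were narrow and far apart (0.8 ± 0.1, edgeR adjusted p = 5.69e-06). The microsomal Cyp4a31 (-1.66) and the peroxisomal isomerase Eci3 (-1.55) were higher in lactation. Their counts were not whole in 17 and 21 libraries.

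Albumin dominated the secreted proteins. Alb (ENSMUSG00000029368) took 16.2 ± 1.57% of all counts (SD, n = 3) in lactating and 8.67 ± 0.983% (SD, n = 4) in regressed livers, beside 9.33 ± 0.97% (SD, n = 4) in nulliparous livers. In CPM it measured 168332, 203208 and 159800 in lactating and 88118, 67203, 84957 and 93631 in regressed livers. The groups did not overlap (-1.09 ± 0.14, edgeR adjusted p = 1.1e-05). In TPM, which sums to a fixed total in each library, Alb went from 113055 ± 12236 (SD, n = 3) to 57575 ± 6007 (SD, n = 4).

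Of 30 tested plasma carriers and apolipoproteins, 8 were lower in regressed livers and 2 were higher, beside 5.39% and 6.36% of all genes. The share called higher was near that of all genes. The median was -0.196 (-0.0675 and -0.0677 by limma on log2 TPM with pseudocounts of 1 and 0.1). Phospholipid transfer protein Pltp (-1.26), the urinary protein Mup20 (-1.14) and the antitrypsin Serpina1a (-0.64) were lower. Apoa5, which lowers plasma triglyceride, was higher, at 957, 1052 and 967 CPM in lactating and 1794, 1473, 1823 and 1783 CPM in regressed livers (0.79 ± 0.15, edgeR adjusted p = 0.000719). Transthyretin (Ttr), Apoa1 and Apob were not called.

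Hepcidin was higher in regressed livers. Hamp, the hormone that closes iron export from gut and macrophages (ENSMUSG00000050440), measured 237, 529 and 279 CPM in lactating and 1263, 1472, 1110 and 1407 CPM in regressed livers. All regressed values were above the highest lactating value, and they overlapped the nulliparous range of 1022 to 1247 CPM (1.91 ± 0.22, edgeR adjusted p = 2.37e-06). Its promoter is shown since 1 of the searched elements is found there, TTCNNNGAA for STAT factors, in capitals; the stretch stops 3 bases before the start.
Hamp (chr7:30944033-30944149, minus strand): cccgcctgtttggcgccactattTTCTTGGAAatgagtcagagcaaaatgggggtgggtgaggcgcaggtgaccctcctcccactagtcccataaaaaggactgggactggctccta

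That element was present for 10.7% of 797 genes called higher in regressed livers, 5.73% of 698 called lower and 8.5% of all tested genes with a window. The paralog Hamp2 was higher as well (1.31), with 138 to 290 CPM in lactating and 413 to 668 CPM in regressed livers, but lost the call without LAC_200, LAC_240 or REG_239, with edgeR adjusted p-values from 0.0668 to 0.12.

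Atoh8, a transcription factor that acts in hepcidin control, was 10.8, 14.8 and 12.9 CPM in lactating and 20.7, 33.6, 35.7 and 28.1 CPM in regressed livers (1.2, edgeR adjusted p = 2.66e-05). The iron exporter Slc40a1 went up by 0.74 and haem oxygenase Hmox1 by 0.54. The transferrin receptor Tfrc (-1.29) and ferritin heavy chain Fth1 (-0.38) were higher in lactation, and Tfrc lost its call without LAC_240 (edgeR adjusted p = 0.0532). In all, 6 of 21 tested members of the iron list were higher in regressed livers and 5 lower, beside 6.36% and 5.39% of all genes. The ligand gene Bmp6 was not called (0.35).

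Some genes of thyroid hormone handling were higher in regressed livers. Dio1, the deiodinase that makes active thyroid hormone, measured 7.17, 10.9 and 4.14 CPM in lactating and 40.8, 62, 21.5 and 28.4 CPM in regressed livers. The groups did not overlap (2.37 ± 0.4, edgeR adjusted p = 0.000507). Thyroxine-binding globulin (Serpina7, 1.62) and the receptor Thra (0.43) were higher too, so that 5 of 15 tested members rose from lactation and 1 fell. Over all genes tested 6.36% rose and 5.39% fell, and the share that fell in the list was near the latter. The call of Dio1 missed the threshold when only the 7 libraries were fitted (edgeR adjusted p = 0.0565).

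Among genes of prolactin and growth hormone signalling, 5 of 28 tested members were higher and 3 lower, beside 6.36% and 5.39% of all genes. The growth hormone receptor Ghr was 291, 283 and 259 CPM in lactating and 405, 383, 420 and 440 CPM in regressed livers (0.57, edgeR adjusted p = 0.00105). Stat5b (0.63) and Stat5a (0.68) were higher, with counts that were not whole in any library. The prolactin receptor Prlr (0.11), Igf1 (0.17) and the STAT5 targets Cish (1.42) and Socs2 (0.83) were not called. Cish measured 19.7 ± 15.4 CPM (SD, n = 3) and 52.8 ± 17.3 CPM (SD, n = 4), a wide spread in both groups.

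Detoxifying enzymes changed gene by gene. Of 35 tested cytochrome P450 and related genes 3 were higher in regressed livers and 7 lower, the former share being near the 6.36% of all genes. The ethanol-inducible Cyp2e1 measured 1460, 1617 and 1408 CPM in lactating and 3756, 4553, 4606 and 3490 CPM in regressed livers, with no overlap (1.46 ± 0.2, edgeR adjusted p = 2.06e-05). Cyp2b13 (1.92) was higher, while Cyp3a41a (-1.58) and Cyp2f2 (-0.6) were higher in lactation. Of 35 tested conjugating enzymes, 8 were lower and 2 higher in regressed livers, beside 5.39% and 6.36% of all genes. The share called higher was near that of all genes. Of the 8, 7 were glutathione transferases, such as Gstm3 (-2.03), Gstm2 (-1.13) and Gstp1 (-0.93). The sulfotransferase Sult2a8 was higher, from 98.1 ± 35 CPM (SD, n = 3) in lactating to 350 ± 34.1 CPM (SD, n = 4) in regressed livers (1.83).

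**Figure D4:**
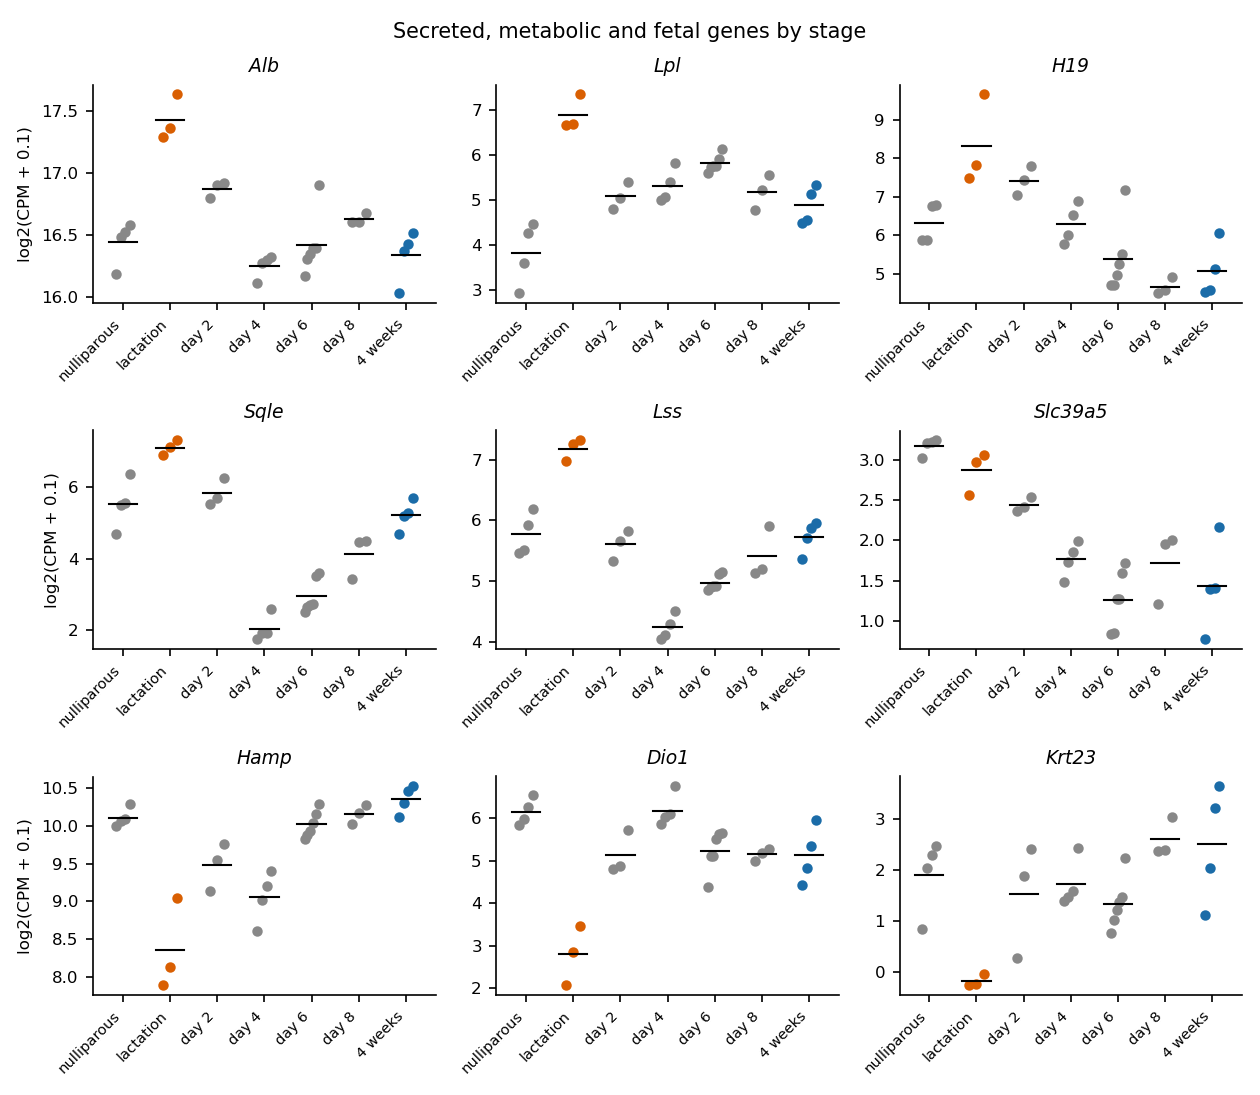
Points are libraries at the 7 stages, with log2(CPM + 0.1) on the vertical axes, bars at the mean of the plotted values, lactating livers in orange and regressed livers in blue. Alb, Lpl, H19, Sqle and Lss are highest in lactation and Hamp, Dio1 and Krt23 lowest, while Slc39a5 is low from day 4 after weaning onwards; Sqle is lowest at day 4, at 3.29 to 5.94 CPM.

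Genes of class II antigen presentation were higher in regressed livers. Of 22 tested genes of class I and class II MHC, 14 were higher and none lower, beside 6.36% and 5.39% of all genes. The median was 0.536. Promoters of the class II genes H2-Aa and H2-Eb1 are shown for CCAAT and its reverse complement, in capitals. Either form was found in 14 of 17 list members that had a window, beside 42.6% of 11701 tested genes.
H2-Aa (chr17:34287824-34287943, minus strand): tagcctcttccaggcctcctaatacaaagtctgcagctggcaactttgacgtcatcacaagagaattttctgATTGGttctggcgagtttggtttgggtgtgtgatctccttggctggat
H2-Eb1 (chr17:34305747-34305866, plus strand): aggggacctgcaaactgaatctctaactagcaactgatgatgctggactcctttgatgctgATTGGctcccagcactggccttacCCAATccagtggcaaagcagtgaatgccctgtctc

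H2-Aa, an alpha chain of class II, measured 6.28, 4.4 and 3.62 CPM in lactating and 24.4, 15, 12.2 and 22.2 CPM in regressed livers. H2-Eb1, a beta chain, measured 6.66, 5.67 and 6.11 CPM in lactating and 33.1, 18.3, 13.9 and 26.1 CPM in regressed livers. Neither gene's groups overlapped, and REG_203 and REG_239 were the highest for both (1.95 and 1.89, edgeR adjusted p = 0.000123 and 0.000118). The invariant chain Cd74 (1.72), H2-Ab1 (1.71), the peptide exchanger H2-DMb1 (1.99) and the class II transactivator Ciita (1.49) went the same way. The class I genes H2-K1 (0.08) and H2-D1 (0.31) and their partner B2m (-0.09) were not called.

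Markers of several cell types moved with these genes. Of 18 tested macrophage and Kupffer cell markers, 13 were higher in regressed livers and none lower (median 0.617), beside 6.36% and 5.39% of all genes. Their summed level was 354 to 468 TPM in lactating and 592 to 688 TPM in regressed livers. The macrophage receptor Adgre1 rose by 0.74, Vsig4 by 0.62 and lysozyme Lyz2 by 0.62. These 3 calls were kept whichever library was left out. Marco (0.15) and Cd163 (0.1) were not called.

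T and NK cell markers were low in both groups. Their sum was 3.75 to 5.23 TPM in lactating and 14.1 to 22.6 TPM in regressed livers, and 8 of 18 were called higher (median 1.47, and 0.253 or 1.19 by limma on log2 TPM with a pseudocount of 1 or 0.1). The T cell receptor component Cd3g rested on 15 to 27 reads per lactating and 51 to 78 reads per regressed library (1.47), and granzyme A (Gzma) on 12 to 29 and 50 to 129 reads (1.8). Of the markers of endothelial cells, 4 of 17 were called higher, and of stellate cells and fibroblasts 4 of 14, with none lower. For B and plasma cells (2 of 14) and neutrophils (1 of 14) the share called higher was nearer to the 6.36% of all genes, although the neutrophil sum was 9 to 13.5 TPM in lactating and 17.1 to 23.5 TPM in regressed livers. No marker of these 6 cell type lists was at 0 in all 7 libraries. Other lists were apart too. The summed level of erythroid and blood markers was 2266 to 3349 TPM in lactating and 1594 to 2132 TPM in regressed livers, with 0 of 9 members called by edgeR, 2 at an unadjusted p under 0.05 and 0 by DESeq2. Sums of adipose markers (567 to 914 and 1229 to 2017 TPM, 2 of 7 called higher), bile duct markers (2557 to 3034 and 3219 to 3529 TPM, 1 of 10) and pancreas acinar markers (12.8 to 13.8 and 18.6 to 33.2 TPM, 0 of 14 called by edgeR, 0 at an unadjusted p under 0.05 and 0 by DESeq2) were higher in regressed livers without overlap, with Sctr, Ucp1, Cpb1, Cel and Try5 at 0 in all 7 libraries. The largest members of the adipose and bile duct sums were Car3 and Ambp, which hepatocytes also make, and that of the pancreas sum was Cela1. The part of these cell type markers in the differences of class II genes was not tested.

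**Figure D5:**
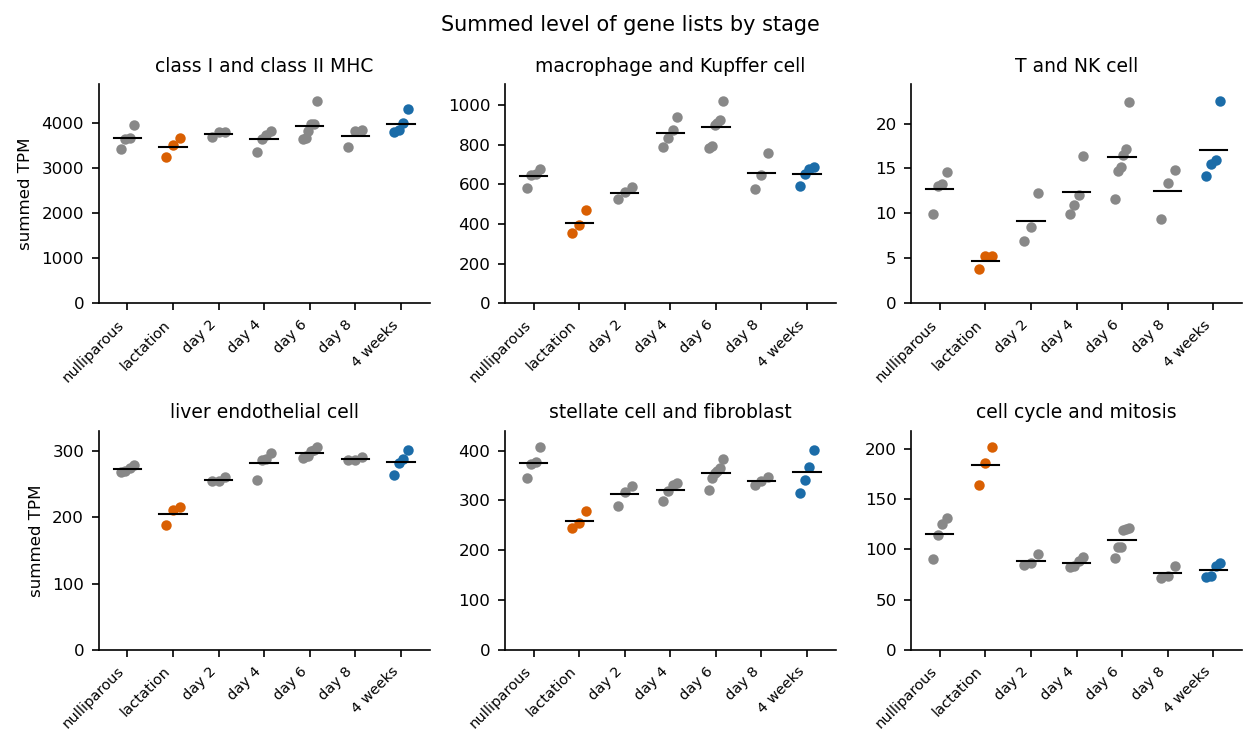
Each point is the summed TPM of a list in 1 library, with stages on the horizontal axis, bars at the mean, lactating livers in orange and regressed livers in blue, and vertical axes starting at 0. Macrophage markers are lowest in lactation (354 to 468 TPM) and highest at day 6 after weaning (784 to 1022 TPM), and the cell cycle list is highest in lactation (165 to 202 TPM).

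A few interferon-inducible genes were higher in regressed livers. Of 26 tested members of the interferon list, Gbp2 (1.58), Gbp3 (1.27), Zbp1 (1.14) and Ifi47 (0.95) were higher and none was lower. These are 15.4% of the members, beside 11.7% of all genes called and 6.36% called higher. Zbp1 lost its call without LAC_213, LAC_240 or REG_203 (edgeR adjusted p from 0.0555 to 0.0845). Gbp2b, of the same family, measured 2.82 to 3.14 CPM in lactating and 8.19 to 16.2 CPM in regressed livers (1.97). Isg15 (-0.02), Ifit1 (-0.02) and Rsad2 (-0.05) were not called.

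Cell death genes included both directions. Of 25 tested members 7 were higher and 2 lower in regressed livers, beside 6.36% and 5.39% of all genes tested. The share called lower was near that of all genes. The caspase genes Casp6 (0.69) and Casp1 (0.97) were higher, and the death receptor Tnfrsf10b (-1.33) and Bax (-0.46) were higher in lactation. The pro-apoptotic Bmf measured 0.673, 0.636 and 1 CPM in lactating and 3.07, 3.1, 4.98 and 5.12 CPM in regressed livers. Its log2 fold change of 2.4 lost the call in 5 of 7 fits with 1 library left out, the highest edgeR adjusted p being 0.132 (the fits without LAC_200, LAC_213, LAC_240, REG_234 or REG_239).

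Among called genes whose groups did not overlap and whose log2 CPM averaged 1 or more over all 27 libraries, the largest rises from lactation belonged to genes of varied function. The lens crystallin gene Crybb3 measured 0.069 to 0.206 CPM in lactating and 0.935 to 1.94 CPM in regressed livers (3.54), and lost the call without LAC_200 or LAC_240 (edgeR adjusted p from 0.0582 to 0.0613). The mitochondrial carrier Slc25a30 measured 10.3, 12 and 6.11 CPM against 50, 25.8, 112 and 165 CPM (3.21), and lost it without LAC_240 (edgeR adjusted p = 0.0504). The keratin Krt23 measured 0.759, 0.877 and 0.744 CPM against 4, 2.08, 12.3 and 9.17 CPM (3.11), a call kept in each of the 7 fits. The lactating values of Krt23 lay within a narrow range and the regressed values were widely spread.

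Ntrk2, the receptor of brain-derived neurotrophic factor, was 0.328 to 1.32 CPM in lactating livers and 3.28, 4.2, 3.28 and 17 CPM in regressed livers (2.84). Without LAC_200, LAC_213, LAC_240 or REG_239 the call was lost, with a log2 fold change of 1.88 at the lowest and an edgeR adjusted p of 0.127 at the highest. Sprouty Spry4 (2.12), the acute phase protein Saa3 (2.22), the sulfotransferase Sult2a3 (1.95) and the protease inhibitor Serpinb1a (1.97) were higher in regressed livers, and kept the call in all 7 fits. In a fit of the 7 libraries alone, Saa3, Slc25a30, Pltp and Cyp4a31 missed the threshold, with edgeR adjusted p-values of 0.0661, 0.0791, 0.0656 and 0.0599. The same fit gave Mvd 0.127, Tfrc 0.119 and Ccnd2 0.0911 by edgeR.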

How the data were processed

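RNA was measured by bulk sequencing of 27 whole livers. The authors deposited 1 table per library with an expected count, a TPM and an FPKM per gene, per the file headers. An expected count is RSEM's estimate of the reads from a gene, and FPKM, also deposited, was not used. STAR 2.6.1a, RSEM 1.3.1 and the builds mm10 and GRCm38 are named in the submitters' processing notes; the use of strand is not given in the sources used here, so overlapping and antisense genes are uncertain. Of 51826 identifiers, 51633 were found in GENCODE M21 and gave symbols and positions on GRCm38; the 193 others had no symbol.

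Groups come from the titles. Expected counts were rounded and fitted in 1 model over 27 libraries and 7 stages with edgeR 4.0.16 in R 4.3.3 (filterByExpr with a minimum count of 10, TMM, robust quasi-likelihood; biological coefficient of variation 0.19), leaving 16428 genes. Tests were two-sided and p-values adjusted by Benjamini-Hochberg over all genes. SE came from the fold change and its F statistic. CPM are TMM-scaled. Levels of different genes are compared only within a gene or as TPM. No pair of libraries in a group was near sampling noise (smallest chi-square per gene 45.7).

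The members and lists were chosen with earlier results of these data known. Named genes are the 12 largest rises and falls among called genes without overlap and with mean log2 CPM of at least 1, the 6 largest in TPM in each direction, up to 4 called members per list with the smallest p, and genes called in both contrasts. Beyond the first group the call alone was required, so 4 of the 137 named genes overlap and 9 lie under the level; other members are named to show what a list holds and were chosen after their values were seen. Alternatives were DESeq2 1.42.0, limma 3.58.1 on log2 TPM, RLE scaling, scaling without abundant genes, no filter, the 2 groups alone, a threshold of 0.01, a clock covariate, each library left out and, added after seeing the data, the number of runs and the motifs CCAAT and TTTGAA. Promoter windows are RefSeq's on GRCm38.p6. Some genes of these lists are counted but not reported here by name.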

Additional observations from a re-analysis of the deposited data

Results flagged for a closer look

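Among the 137 named genes, 6 had 1 regressed library far from the other 3, by the gap to its nearest neighbour relative to the whole range; about 1 in 20 groups does so by chance. Cdk1 was 0.616 CPM in REG_239 against 0.269 to 0.286 CPM in the others, and Ntrk2 was 17 CPM in the same library against 3.28 to 4.2 CPM. Complement C2 was 136 CPM in REG_203 against 113 to 116 CPM. Gpam, the first enzyme of glycerolipid synthesis, was 83.5 CPM in REG_234 against 113 to 117 CPM. In REG_214, Apoa5 was 1473 CPM against 1783 to 1823 CPM and the aldehyde dehydrogenase Aldh1a1 was 208 CPM against 272 to 284 CPM.

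For 12 named genes the change from lactation differed between the regressed and the nulliparous reference, as tested by the contrast of those groups in edgeR. Being called in both contrasts was itself a rule for naming, so the count of 12 follows from that rule. Cdc20 alone stayed called when only regressed and nulliparous libraries were fitted. Among the 12, only Cdc20, Hmmr and Slc39a5 kept this call whichever library was left out. On the log2 scale the differences were -3.99 for Cdc20, -3.12 for Hmmr, -2.55 for Ckap2, -2.41 for Arhgef39, -1.86 for Cdk1, -1.71 for Kif20a, -1.68 for Slc39a5, -1.45 for Nek2, -0.87 for Lrp11, -0.56 for Ddx11, 0.68 for H2-Q7 and 1.22 for Rdh16f2. Negative values mean lower in regressed than in nulliparous livers.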

How the results depend on the processing

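The count of 1930 genes between regressed and lactating livers ranged from 1232 (without LAC_213) to 1882 (without REG_203) when 1 library was left out. It was 945 at an adjusted p under 0.01 and 1215 when only the 2 groups were fitted, 1129 of them shared with the 1930. DESeq2 called 2277, RLE scaling 1926, scaling without mitochondrial and the 10 most abundant genes 1919 (49.8% higher in regressed livers), limma on log2 TPM 1891 and 1995, the clock covariate 2026, no filter 1596, and the number of runs, added after seeing the data, 1587. Against nulliparous livers the 14 calls became 6 at the stricter threshold, 70 with DESeq2, 1 in the fit of 2 groups, 8 with limma at either pseudocount and 32 with the clock covariate, and 4 to 32 with 1 library left out. The cause of these shifts was not tested. None of the 137 named genes changed direction between regressed and lactating livers in these fits. At a threshold of 0.05, 93 kept their call in every fit and 102 in every fit with 1 library left out. When only the 250 bases before the start were searched, the shares of called genes with TTCNNNGAA, TCACNCCAC and CACGTG stayed within their 95% Wilson intervals. Among all genes tested TTCNNNGAA went from 8.5% to 7.42% and CACGTG from 11.2% to 9.43%. That interval check left out CCAAT and TTTGAA. Among genes called lower in regressed livers CCAAT went from 53.4% to 50.6% and TTTGAA from 22.3% to 17.6%.

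No paired analysis was possible because no number in the titles occurs in more than 1 group. With 3 and 4 libraries, changes under 2-fold are often missed, and a gene that was not called is not shown to be equal. The time of day of sampling is not given in the sources used here. The libraries carry no molecular identifiers, so read counts cover counting error only.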

Other observations

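Genes of the zones of the liver lobule moved in both directions. Among 20 tested genes of the zone around the central vein and of Wnt signalling, 4 were higher in regressed than in lactating livers and 3 lower, beside 6.36% and 5.39% of all genes tested. Lect2, a Wnt-dependent secreted protein, was 80.7 to 83.8 CPM in lactating and 145 to 169 CPM in regressed livers (0.96, edgeR adjusted p = 1.64e-05), and ornithine aminotransferase Oat 189 to 231 CPM and 328 to 486 CPM (0.86). Glutamine synthetase (Glul), the classical gene of that zone, was not called, at 614 ± 46.9 CPM (SD, n = 3) and 594 ± 62.4 CPM (SD, n = 4). Of 18 tested periportal genes, 3 were higher, among them serine dehydratase Sds (0.82), and 3 lower, among them Alb and Cyp2f2. By limma on log2 TPM that list's median changed sign, from -0.0321 to 0.0452. The median stayed negative with RLE scaling (-0.0452) and with scaling without mitochondrial and the 10 most abundant genes (-0.0489).

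Akr1b7, an aldo-keto reductase, Plxnb1, a semaphorin receptor, and Stmn1, a regulator of microtubules, belonged to no list and were among the largest falls from lactation, at -2.48, -2.74 and -2.6. Plxnb1 measured 28.7, 25.4 and 36.9 CPM in lactating and 3.61, 5.48, 4.75 and 4.32 CPM in regressed livers. Dntt, the template-independent polymerase known from developing lymphocytes, measured 12, 10.7 and 6.44 CPM in lactating, 2.16, 0.648, 1.28 and 2.22 CPM in regressed and 0.398 to 1.02 CPM in nulliparous livers (-2.62).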
